A study of Mus musculus with 119 samples.

Results

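The genes described here are 59 genes of bone marrow-derived macrophages (BMDMs) whose mRNA was at least 2-fold lower after 1 h of LPS, a cell wall lipid of Gram-negative bacteria that macrophages sense through TLR4. They were chosen on measured values: the mean log2 value of the 6 wild-type (WT) libraries at 1 h had to lie at least 1 below the mean of the 6 unstimulated WT libraries, and the unstimulated mean had to be at least 6. Of the 18098 genes measured, 95 met both limits. Those whose symbols begin with Zfp, Klf, Id, Rgs, Mxd or Btg were left out, and all 36 genes removed in this way had symbols beginning with Zfp, so zinc finger genes with such symbols are missing from the set by design, and those with other symbols remain in it. Because the unstimulated and 1 h WT libraries chose the genes, every difference that uses them is given as a description without a test, and tests are given for the other genotypes, the inhibitors, and the other times.

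The libraries came from C57BL/6(NIMR) mice, whose bone marrow cells were grown for 7 days in L-cell conditioned medium, a source of the growth factor CSF1, kept overnight in 1% FBS, and given LPS at 100 ng/ml. There were 22 libraries of untreated WT cells, 6 each before LPS and at 0.5 and 1 h and 4 at 2 h. Map3k8[D270A] cells, in which the kinase TPL-2 is catalytically inactive, gave 24 libraries, 6 at each of the same times. Elk1-/-Elk4-/- cells, which lack a pair of the ternary complex factors that ERK activates, gave 16, 4 at each time. Nfkb1[SS/AA] cells carry an NF-kB1 p105 without the serines that trigger its breakdown and the release of TPL-2, and gave 18, 6 each before LPS, at 0.5 h and at 1 h. WT cells treated with PD0325901, an inhibitor of MKK1/2 (the kinases upstream of ERK1/2), at 0.1 µM gave 21 libraries, 3 each after 10, 40 and 70 min of inhibitor alone and 6 each at 0.5 h and at 1 h with LPS, and 3 more libraries came from cells given only the solvent DMSO. WT cells treated with RSKi47, an inhibitor of the ERK-activated kinase RSK, at 2 µM gave 15 libraries, 4 after 10 min of inhibitor alone, 3 at 0.5 h, 4 at 1 h and 4 at 2 h. The mutations are germ-line and not restricted to macrophages, and no source used here gives the ages of the mice. The labels do not say whether replicates were separate animals or cultures, so p-values measure the spread between these samples.

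LPS induces cytokine and feedback genes within minutes, and the mRNA of another group of genes falls. An mRNA level can fall through less transcription, through faster decay or both, and neither was measured here. Among the genes described here were brakes on metabolism and growth signaling (Txnip, Arrdc3, Pik3ip1), a feedback inhibitor of ERK (Dusp6), and genes of receptors and transcription factors. In wider lists of related genes, given below, some genes fell and others rose.

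The libraries carried the markers of macrophages. The summed level of 10 macrophage markers was between 18.71 and 19.44 on the log2 scale in all 119 libraries, whereas lymphocyte markers summed to 3.82 to 4.49, erythroid and mast cell markers to 1.65 to 1.96, dendritic cell markers to 4.90 to 6.53, and stromal markers to 5.61 to 7.60 except in RSKi47 replicate 4 before LPS (9.49). Neutrophil markers summed to 10.06 to 11.06 in Elk1-/-Elk4-/- libraries and to 6.36 to 8.85 in all others, with Ly6g, Camp, Elane, Mpo, Retnlg and Cxcr2 below 6 in every group. In unstimulated Elk1-/-Elk4-/- cells the mean levels of S100a9, Ngp, S100a8 and Ltf were 8.94, 8.21, 7.88 and 7.80, against 5.17, 4.18, 4.92 and 3.85 in WT cells. Elk1 and Elk4 were lower in every Elk1-/-Elk4-/- library (6.17 to 6.59 and 5.51 to 5.88) than in every other library (from 8.55 and 6.88), and the other mutations change amino acids that mRNA levels do not check. Nfkb1[SS/AA] replicate 2 at 1 h and RSKi47 replicate 4 at 2 h stood furthest from the rest of their groups. Their root mean square differences were 0.301 and 0.266 over genes with an unstimulated WT mean of at least 6. The median over all libraries was 0.125. Counts without these replicates are given beside several of the counts they moved. Whether a lower value reflects less RNA per cell or a different mix of cells cannot be told apart in bulk libraries.

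The proximal promoters of 4 of the 10 genes with the largest difference in WT cells are printed as examples. Those of Arrdc3 and Txnip were taken because their differences were the largest. Those of Ier5l and Frat1 were taken because each held 2 CCAAT words, so their CCAAT content was fixed by the choice. Each sequence runs from 250 bases before to 50 bases after the annotated start, 5′ to 3′ in the direction of the gene, in RefSeq annotation of GRCm38.p6, and capitals mark CCAAT (the NF-Y word), GTAAACA (a forkhead word) and CACGAG (a word bound by the glucose-responsive factors MondoA and ChREBP in pairs), each on either strand. Arrdc3 (chr13:80883134-80883433, + strand, 1 of 3 annotated starts) encodes an arrestin-domain adaptor, and Txnip (chr3:96557707-96558006, + strand) encodes the related thioredoxin-interacting protein. Ier5l (chr2:30474150-30474449, − strand) encodes a relative of the immediate early gene Ier5, and Frat1 (chr19:41829720-41830019, + strand) encodes an inhibitor of GSK3 in Wnt signaling.
Arrdc3: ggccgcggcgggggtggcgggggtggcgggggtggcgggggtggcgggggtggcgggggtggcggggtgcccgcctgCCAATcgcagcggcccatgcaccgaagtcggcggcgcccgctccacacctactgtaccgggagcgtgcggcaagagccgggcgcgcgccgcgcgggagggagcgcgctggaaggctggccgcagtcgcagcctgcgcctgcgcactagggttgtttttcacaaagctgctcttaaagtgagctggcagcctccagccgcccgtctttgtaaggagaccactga
Txnip: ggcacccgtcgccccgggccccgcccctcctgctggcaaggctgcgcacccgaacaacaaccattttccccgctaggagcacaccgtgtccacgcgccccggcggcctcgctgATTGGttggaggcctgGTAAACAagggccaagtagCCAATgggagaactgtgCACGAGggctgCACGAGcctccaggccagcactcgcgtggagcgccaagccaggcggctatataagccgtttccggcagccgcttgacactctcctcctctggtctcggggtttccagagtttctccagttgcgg
Ier5l: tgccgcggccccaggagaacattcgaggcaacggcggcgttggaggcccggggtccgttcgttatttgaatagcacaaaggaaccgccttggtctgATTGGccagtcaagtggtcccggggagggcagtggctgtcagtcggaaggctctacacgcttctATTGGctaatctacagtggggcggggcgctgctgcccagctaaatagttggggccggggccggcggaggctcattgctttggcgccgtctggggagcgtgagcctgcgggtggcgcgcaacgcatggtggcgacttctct
Frat1: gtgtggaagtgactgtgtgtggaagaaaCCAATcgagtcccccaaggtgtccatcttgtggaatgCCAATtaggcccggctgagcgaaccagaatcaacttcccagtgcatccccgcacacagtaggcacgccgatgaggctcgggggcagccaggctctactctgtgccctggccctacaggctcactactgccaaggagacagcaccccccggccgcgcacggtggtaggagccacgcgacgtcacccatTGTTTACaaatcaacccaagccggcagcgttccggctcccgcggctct
The Txnip promoter held 2 CCAAT words, 1 GTAAACA word, and 2 CACGAG words 5 bases apart. Of the 27025 promoters of the annotation, 1 (0.0037%) held this exact arrangement, that of Txnip itself, so nothing is read from its rarity. Arrdc3 held 1 CCAAT word and neither of the others, Ier5l and Frat1 held 2 CCAAT words each, and Frat1 also held GTAAACA. Of the 9 genes among these 10 with a promoter in the table, 6 held CCAAT. A promoter was found for 46 of the 59 genes. CCAAT was present in 26 of them (56.5%), in 43.2% of 8142 other genes expressed at an unstimulated mean of at least 6, and in 41.1% of all promoters. GTAAACA was present in 4 (8.7%: Txnip, Frat1, Tmem140 and Gpr146) against 3.1% and 4.05%. A loose NF-kB word, GGGA and CC with 4 bases between, was present in 43.5% against 30% and 22.9%, whereas TATAAA was present in 4.35% against 8.19% and 15.7%, and CACGAG alone in 10.9% against 10.5% and 7.47%. The AP-1 word TGANTCA was present in 6.52%, 5.91% and 8.97% of the 3 sets. These shares are descriptions, and no test was run on them.

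In WT cells the repression came between 0.5 and 1 h. The median of the 59 differences from unstimulated cells was -0.15 at 0.5 h, -1.22 at 1 h and -0.94 at 2 h on the log2 scale, while the medians over the 10018 other genes with an unstimulated mean of at least 6 were -0.01, 0.00 and -0.01. At 0.5 h no gene was lower by 1 and 10 were above their unstimulated mean, and the furthest below were Hmga2-ps1 (-0.77), Angptl4 (-0.65), Zkscan14 (-0.64), Rhov (-0.61), Nhlrc1 (-0.58) and Tsc22d3 (-0.51). At 1 h, where the rule set the limit, the differences ran from -2.59 for Arrdc3 to -1.01 for Eid2b, Palb2 and Ftsj2, the 3 genes just inside the limit. The genes just outside were Zscan20 (-0.995), Mrgpre (-0.99) and Rbak (-0.98), so the limit cuts a continuous range. Most of the genes were of moderate abundance, with a median unstimulated mean of 7.35 against 9.48 for the other expressed genes, and the 5 most abundant were Txnip (13.38), Cd300lb (12.91), S1pr2 (11.49), Arrdc3 (11.41) and Tmem140 (10.51).

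From 1 to 2 h the genes moved in different directions. Shares over all genes are not given for these WT counts, so the counts are descriptions only. The median change from 1 to 2 h was 0.36 for the 59 genes and 0.01 for the 10018 other expressed genes. In the other arms, where shares are given below, many genes outside the set also moved both ways. In WT cells 26 of the 59 were still at least 2-fold below unstimulated cells at 2 h, and 25 lay within 0.5 of their 1 h mean. In all, 6 were lower at 2 h than at 1 h by at least 1: Lpar6 (-1.76), Cnr2 (-1.66), Dusp6 (-1.29), Arrdc3 (-1.21), Hmga2-ps1 (-1.06) and Cd300lb (-1.04). Another 5 were higher by at least 1: the cyclin gene Ccnj (2.26), the long noncoding RNA 4632415L05Rik (1.95), Csrnp2 (1.81), Sertad3 (1.35) and Txnip (1.03). The first 4 of these 5 ended above their unstimulated mean, by 1.17, 0.77, 0.53 and 0.13. Arrdc3 was thus 6.01-fold below unstimulated WT cells at 1 h and 13.9-fold at 2 h, Cnr2 2.85-fold and 8.98-fold, and Frat1 2.91-fold and 4.2-fold, whereas Txnip went from 4.68-fold to 2.3-fold and Angptl4 from 3.56-fold to 2.22-fold. Bmf, a BH3-only activator of cell death, stayed near 3.42-fold and 3.45-fold.

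**Figure D1:**
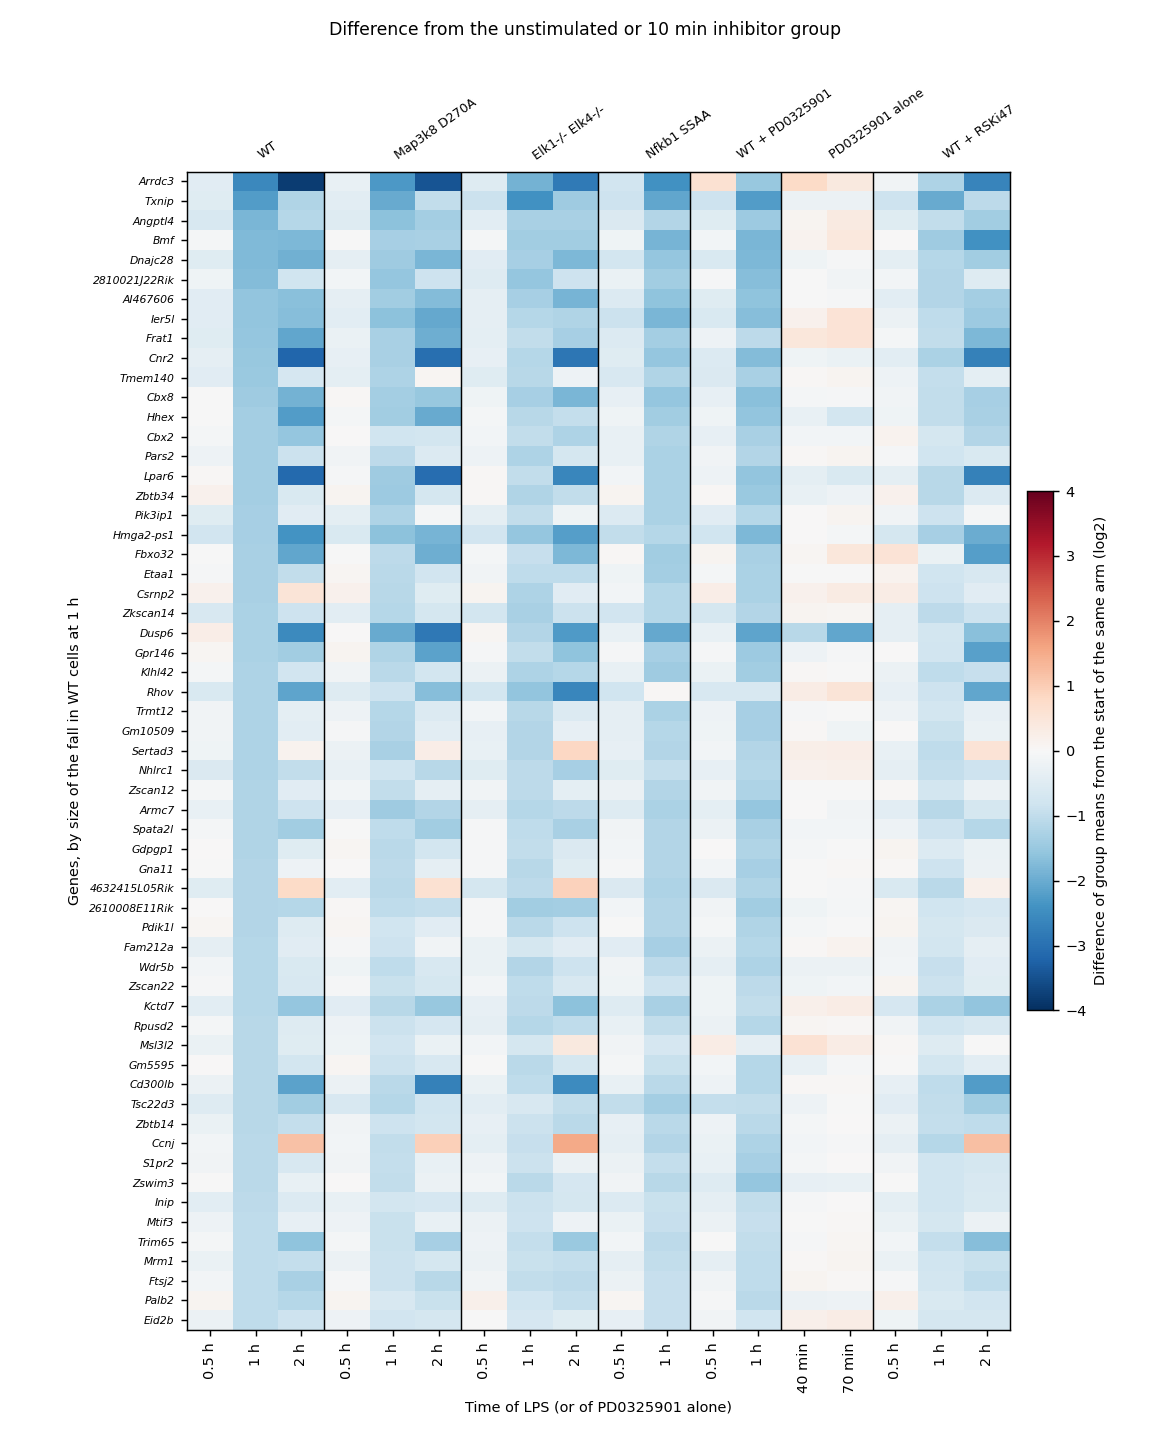
Difference of each group mean from the mean of the same genotype or treatment before LPS (log2, colour scale from -4 to 4) for the 59 genes, ordered by the difference in WT cells at 1 h. Columns at 0.5 h are pale, columns at 1 h are blue for nearly every gene, and at 2 h a few rows (Ccnj, 4632415L05Rik and Sertad3) turn to values above 0.

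The first question was whether the genes were also lower at 1 h of LPS in the mutant and inhibitor arms. What remained of ERK, RSK or ternary complex factor activity in these arms was not measured. The median difference was below 0 in every arm, with single genes as exceptions, given below. In Map3k8[D270A] cells all 59 fell (limma, adjusted p below 0.05), against 20.1% of the 11884 genes tested called lower, and 0 rose, against 21.8% called higher (5692 genes had an unadjusted p below 0.05 in either direction). The median difference was -1.08, from -2.30 for Arrdc3 to -0.65 for Palb2, against 0.00 over all genes tested. With a difference of at least 2-fold as well, 38 of the 59 were called, against 0.606% of all genes. In Elk1-/-Elk4-/- cells all 59 fell (16.6% of all genes), 39 of them at least 2-fold (0.783%), with a median of -1.08. In PD0325901-treated cells compared with 10 min of inhibitor alone all 59 fell (20.9%), 51 at least 2-fold (1.37%), with a median of -1.26.

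The exceptions were 3 signaling or degradation genes. In Nfkb1[SS/AA] cells 58 of 59 fell (21.9% of all genes called lower), 46 at least 2-fold (0.969%), with a median of -1.18, and the exception was Rhov, at 0.04 (95% interval -0.14 to 0.23, limma adjusted p = 0.75). In RSKi47-treated cells 58 of 59 fell (14%), 19 at least 2-fold (0.451%), with a median of -0.90. The exception was Fbxo32, at -0.25 (interval -0.48 to -0.02, limma adjusted p = 0.0915). It passed without RSKi47 replicate 4, and also with the replicate number as a block. When PD0325901-treated cells at 1 h of LPS were compared instead with cells given the inhibitor alone for 70 min, which matches the time in inhibitor, 58 fell (21.7%), and the exception was Dusp6, at -0.03 (interval -0.24 to 0.18, limma adjusted p = 0.865). That last comparison was added after the data were seen. Without Nfkb1[SS/AA] replicate 2 the counts in these cells were 58 and 45, and without RSKi47 replicate 4 they were 59 and 21. The natural-logarithm threshold that may apply to these values gives 58 genes at least 2-fold lower in Map3k8[D270A] cells and 55 with RSKi47.

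The separation held library by library. Every 1 h library lay below every library of the start for 59 genes in Map3k8[D270A] cells (13.2% of all genes), 59 in Elk1-/-Elk4-/- cells (16.6%), 58 in Nfkb1[SS/AA] cells (11.1%), 59 with PD0325901 (24.6%, against only 3 start libraries) and 57 with RSKi47 (13.8%). In WT cells, where the rule used the same libraries, the count was 59 (14.2%) and nothing is read from it. The median over the 59 genes was also computed in each library. At 1 h it ran from -1.26 to -1.16 in WT, -1.16 to -1.02 in Map3k8[D270A], -1.14 to -1.04 in Elk1-/-Elk4-/-, -1.24 to -1.17 in Nfkb1[SS/AA], -1.31 to -1.23 in PD0325901-treated and -0.99 to -0.81 in RSKi47-treated libraries. With PD0325901 alone it was between -0.02 and 0.02 at 40 and 70 min. The RSKi47 libraries at 1 h were thus the closest to 0, and whether they differ from WT was not tested because the WT libraries chose the genes.

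**Figure D2:**
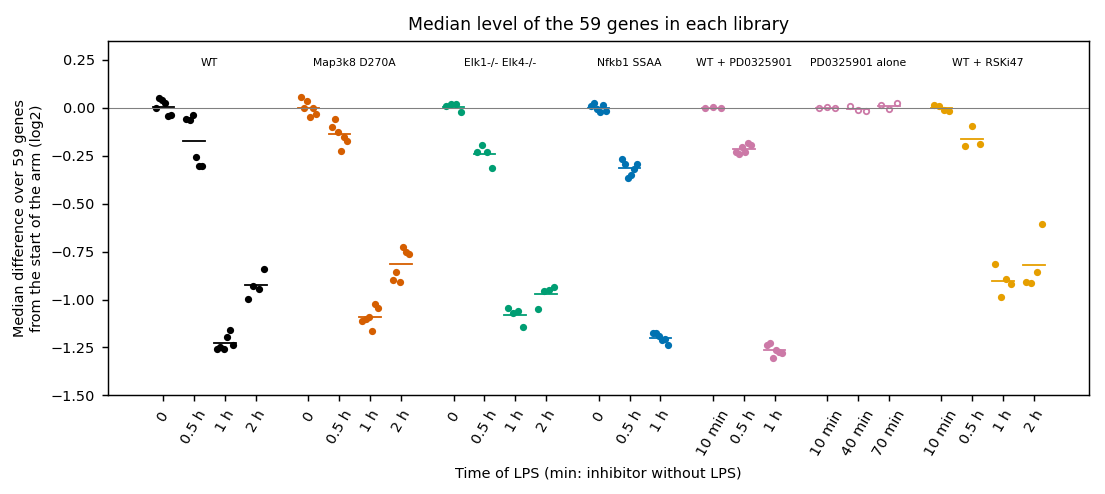
Median over the 59 genes of the log2 difference from the start of the same arm, 1 point per library with a line at the group mean, by time of LPS or of inhibitor alone. At 1 h all libraries of every arm lie between -1.31 and -0.81, and at 0.5 h WT replicates 7 to 9 (-0.31 to -0.26) lie below WT replicates 4 to 6 (-0.07 to -0.04).

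Genes of every role fell in Map3k8[D270A] cells at 1 h. The roles were assigned after the genes were known, so no order is read from them. The 4 metabolic and cell death genes Arrdc3, Txnip, Angptl4 (an inhibitor of lipoprotein lipase) and Bmf, which also had the lowest differences in WT cells, fell with differences of -2.30 to -1.32, and all genes of the groups below passed the same test. The 5 receptor genes (Cnr2, Lpar6, S1pr2, Gpr146 and Cd300lb) were at -1.43 to -0.95, and the 8 signaling genes (Dusp6, Tsc22d3, Pik3ip1, Frat1, Gna11, Rhov, Fam212a and Pdik1l) at -2.001 to -0.81. The 13 transcription and chromatin genes, among them Hhex, the Polycomb subunits Cbx2 and Cbx8, and the zinc finger genes Zbtb14, Zbtb34, Zkscan14, Zscan12 and Zscan22, were at -1.47 to -0.76. The 5 ubiquitin ligase genes (Fbxo32, Nhlrc1, Trim65, Klhl42 and Kctd7) were at -1.12 to -0.80, the 4 genes of DNA repair and the cell cycle (Etaa1, Palb2, Inip and Ccnj) at -1.09 to -0.65, and the 6 genes Pars2, Mtif3, Ftsj2, Mrm1, Trmt12 and Rpusd2, which charge or modify RNAs or start translation, mostly in mitochondria, at -1.14 to -0.85. The 14 remaining genes, among them Ier5l, Tmem140 and Dnajc28, were at -1.66 to -0.99.

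Arrdc3 (chromosome 13 from 80883384 to 80896042, 8 exons), an adaptor that directs receptors to ubiquitin ligases and restrains metabolic signaling, had the lowest 1 h value relative to its start in WT, Map3k8[D270A] and Nfkb1[SS/AA] cells, and Txnip in the other arms. In WT libraries it was 11.27 to 11.52 before LPS (median 11.43), 10.49 to 11.44 at 0.5 h (10.99), 8.53 to 9.12 at 1 h (8.80), and 7.47, 7.56, 7.78 and 7.64 in the 4 libraries at 2 h. No 1 h library reached an unstimulated one, and the 2 h libraries lay below all of the 1 h libraries. In Map3k8[D270A] libraries the ranges were 11.30 to 11.58 (median 11.40), 10.88 to 11.28 (11.17), 8.95 to 9.33 (9.10) and 7.67 to 8.46 (7.94), differences of -2.30 at 1 h (SE 0.12, limma adjusted p = 6.64e-23) and -3.44 at 2 h (adjusted p = 2.96e-31). Arrdc3 also fell at 1 h in the other arms, with differences of -1.90 in Elk1-/-Elk4-/-, -2.41 in Nfkb1[SS/AA], -1.51 with PD0325901 and -1.23 with RSKi47. The starting level was not the same in all arms: the 3 DMSO libraries held 10.18, 10.16 and 10.24, Elk1-/-Elk4-/- libraries 10.58, 10.76, 10.76 and 10.36, Nfkb1[SS/AA] libraries 10.48 to 10.85 (median 10.64), and RSKi47 libraries 10.41, 10.51, 10.51 and 10.12, all below the WT libraries. At 1 h RSKi47 replicate 1 stood high, at 9.73, against 9.09, 8.99 and 8.83 in the others. The gene overlaps 1700023H06Rik on the opposite strand.

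Txnip (chromosome 3 from 96557957 to 96561883, 8 exons), which binds thioredoxin and limits glucose uptake, was the most abundant of the genes and the clearest case of partial return. WT libraries held 13.07 to 13.52 before LPS (median 13.44), 12.42 to 13.34 at 0.5 h (12.90), 10.99 to 11.34 at 1 h (11.13), and 12.12, 12.12, 12.34 and 12.13 at 2 h. The 2 h libraries lay above all 1 h libraries and below all unstimulated ones. Map3k8[D270A] libraries did the same, with 13.40 to 13.70 (median 13.52), 13.01 to 13.31 (13.12), 11.35 to 11.76 (11.50) and 12.31 to 12.79 (12.57), a difference of -2.01 at 1 h (limma adjusted p = 1.45e-25) followed by a rise of 1.02 from 1 to 2 h (SE 0.09, adjusted p = 5.13e-14). The rise from 1 to 2 h was 0.99 in Elk1-/-Elk4-/- cells and 0.95 with RSKi47. At 1 h it fell in every other arm, with differences of -2.41, -2.08, -2.24 and -2.01 in Elk1-/-Elk4-/-, Nfkb1[SS/AA], PD0325901-treated and RSKi47-treated cells. RSKi47-treated cells started lower, at 12.70, 12.68, 12.78 and 12.29, than every WT library and remained lower at 2 h, at 11.53, 11.62, 11.53 and 11.53. Gm15441 overlaps the gene on the opposite strand.

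Among receptors, Cnr2, the cannabinoid receptor of immune cells, Lpar6, a receptor for lysophosphatidic acid, and Cd300lb, an activating receptor that pairs with DAP12, continued to lose mRNA after 1 h, while S1pr2, a receptor for sphingosine 1-phosphate, did not. Cnr2 (chromosome 4 from 135895394 to 135920207, 2 exons) was 9.53 to 10.01 in unstimulated WT libraries (median 9.80), 8.16 to 8.36 at 1 h (8.27), and 6.52, 6.75, 6.52 and 6.62 at 2 h. In Map3k8[D270A] libraries it was 9.56 to 10.07 (median 9.88), 8.28 to 8.69 (8.59) and 6.53 to 7.06 (6.85) at these times, and it was at a similar 2 h level in Elk1-/-Elk4-/- (6.70, 6.90, 6.79 and 7.05) and RSKi47-treated libraries (6.92, 7.02, 7.11 and 7.05). The 3 times did not overlap in either genotype. From 1 to 2 h in Map3k8[D270A] cells Cnr2 fell by 1.72 (SE 0.09, limma adjusted p = 9.23e-23), Lpar6 fell by 1.61 (adjusted p = 3.23e-24) and Cd300lb fell by 1.60 (adjusted p = 3.87e-28). The same genes also fell in Elk1-/-Elk4-/- cells (-1.74, -1.63 and -1.49) and with RSKi47 (-1.44, -1.57 and -1.23). S1pr2 instead rose by 0.65 from 1 to 2 h in Map3k8[D270A] cells (0.91 within replicates 1 to 3 and 0.39 within replicates 4 to 6) after a difference of -0.95 at 1 h. Lpar6 consists of a single exon that lies inside Rb1 on the opposite strand.

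Cd300lb ended lower than in WT in each of the other arms sampled at 2 h. Its 2 h values were 10.67, 10.77, 10.86 and 10.76 in WT, 10.24, 10.26, 10.30 and 10.26 in Elk1-/-Elk4-/-, 10.54, 10.27, 10.34 and 10.65 in RSKi47-treated and 10.08 to 10.71 (median 10.31) in Map3k8[D270A] libraries. No Elk1-/-Elk4-/- or RSKi47 library reached a WT library, whereas the Map3k8[D270A] and WT ranges overlapped. The differences were -0.50 in Elk1-/-Elk4-/- (SE 0.08, limma adjusted p = 7.61e-07), -0.42 in Map3k8[D270A] (adjusted p = 1.24e-05) and -0.32 in RSKi47-treated cells (adjusted p = 3.16e-05). The Map3k8[D270A] difference was -0.67 within WT replicates 4 to 6 and Map3k8[D270A] replicates 1 to 3, and -0.16 within the later replicates, where it did not pass and WT has 1 library. Gpr146, an orphan receptor, was 8.39, 8.56, 8.99 and 8.20 in WT and 7.49, 7.46, 7.23 and 7.53 in RSKi47-treated libraries at 2 h, again without overlap, a difference of -1.11 (SE 0.11, limma adjusted p = 1.49e-15), and in Map3k8[D270A] cells it differed by -0.73 (adjusted p = 4.23e-06), with -0.465 and -0.78 within the replicate sets.

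**Figure D3:**
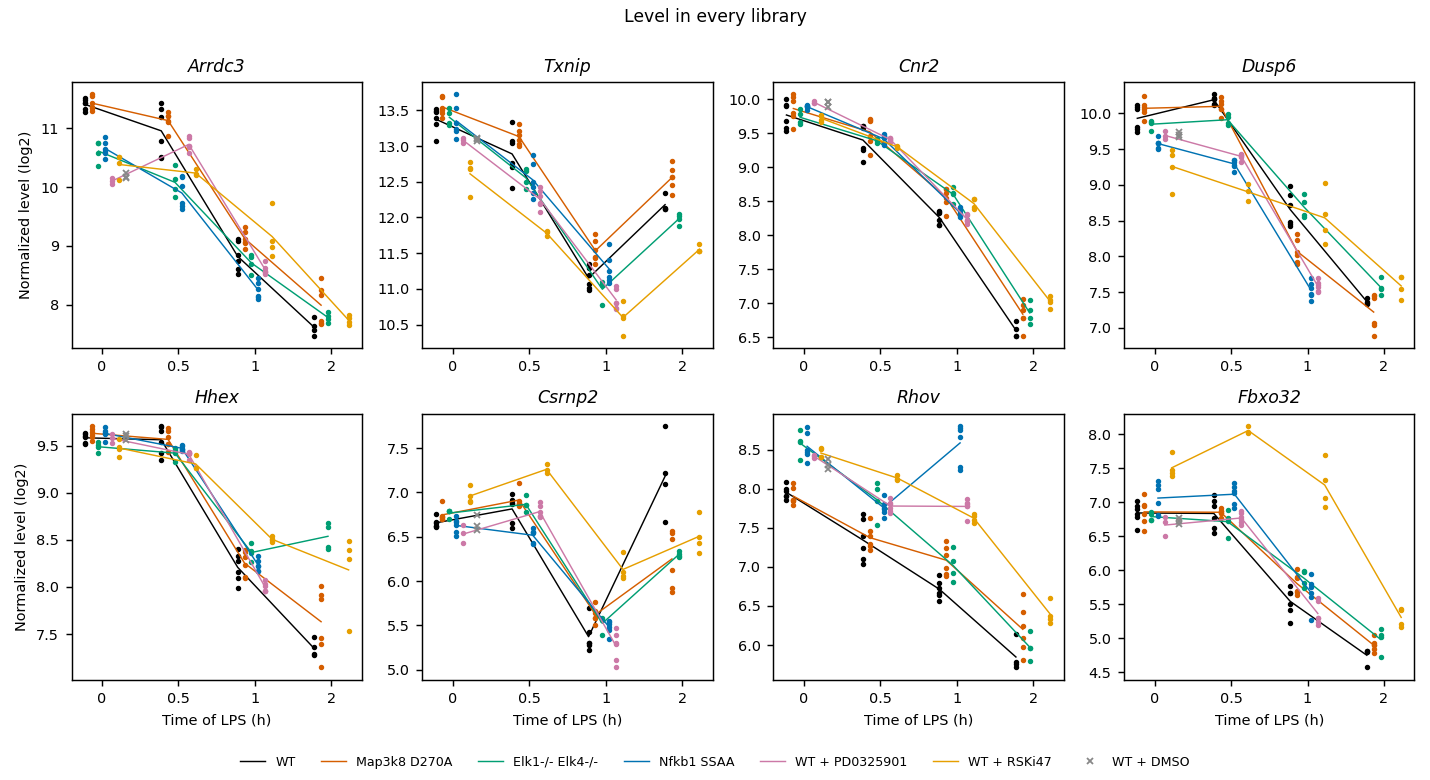
Level of 8 genes (log2) by hours of LPS, drawn evenly spaced, with 1 point per library, 1 colour per arm, lines through group means, crosses for DMSO, and 0 for cells without LPS (after 10 min of inhibitor or DMSO where given). In WT libraries Arrdc3, Cnr2, Dusp6, Hhex, Rhov and Fbxo32 are lower at 2 h than at 1 h, Txnip returns in part and Csrnp2 returns, while Rhov is high at 1 h in Nfkb1[SS/AA] libraries (8.24 to 8.80).

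Dusp6 (chromosome 10 from 99263231 to 99267489, 3 exons), the cytoplasmic phosphatase that dephosphorylates ERK, depends on ERK in many cells, and it was lower both after LPS and after a longer time in PD0325901 alone. In WT libraries it was 9.74 to 10.11 before LPS (median 9.93), 10.12 to 10.26 at 0.5 h (10.21), 8.42 to 8.99 at 1 h (8.60), and 7.36, 7.34, 7.35 and 7.42 at 2 h. It was above every unstimulated library at 0.5 h, 1 of 10 genes with a 0.5 h mean above the start. Map3k8[D270A] libraries held 9.89 to 10.24 (median 10.07), 9.94 to 10.22 (10.10), 7.89 to 8.31 (8.04) and 6.89 to 7.46 (7.24), and their 1 h libraries lay below all WT 1 h libraries. It fell at 1 h, with differences of -2.001 in Map3k8[D270A] (SE 0.09, limma adjusted p = 2.3e-27), -1.16 in Elk1-/-Elk4-/-, -2.05 in Nfkb1[SS/AA] and -0.72 in RSKi47-treated cells.

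Without any LPS, Dusp6 was lower at each later time in PD0325901: the 3 libraries at each time held 9.69, 9.64 and 9.75 after 10 min, 8.58, 8.58 and 8.56 after 40 min, and 7.79, 7.46 and 7.58 after 70 min, against 9.67, 9.69 and 9.74 after 10 min of DMSO. Each later time lay below the one before, and because no DMSO libraries of 40 or 70 min were analysed here, the inhibitor and the time in culture cannot be told apart. From 10 to 70 min Dusp6 fell by 2.08 (SE 0.12, limma adjusted p = 6.35e-28), and the 6 libraries with 1 h of LPS, 7.50 to 7.69 (median 7.58), lay in the range of the 70 min libraries without LPS. At 0.5 h of LPS the libraries held 9.31 to 9.44 (median 9.41), above the 40 min libraries by 0.82 (limma adjusted p = 4.79e-10). At the same time in inhibitor, Dusp6 was thus higher with LPS at 0.5 h, and at 1 h its libraries with and without LPS overlapped.

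Other genes also changed over the time in PD0325901 alone, and not in one direction. Between 10 and 40 min without LPS 4 of the 59 fell (2.26% of all genes called lower), Dusp6, Lpar6, Zswim3 and Zbtb34, and 3 rose (1.32%). Arrdc3 was 10.06, 10.11 and 10.16 after 10 min, 10.85, 10.80 and 10.96 after 40 min, and 10.40, 10.51 and 10.55 after 70 min. Its libraries did not overlap between these times, and it rose by 0.76 from 10 to 40 min (SE 0.16, limma adjusted p = 0.000773), beside 0.57 for Msl3l2, a call lost without replicate 3, and 0.44 for Frat1. From 10 to 70 min Arrdc3 differed by 0.38 (adjusted p = 0.163). Leaving out any of the 3 replicates left 1 of the 4 that fell, and leaving out replicate 3 left 1 of the 3 that rose. Between 10 and 70 min 3 of the 59 fell (3.47% of all genes called lower) and 6 rose (2.62%), with a median of -0.01 that turned to 0.03 without replicate 2. Besides Dusp6, Hhex fell by 0.75 (limma adjusted p = 3.04e-07) and Lpar6 fell by 0.60 (adjusted p = 5.27e-05). The genes that rose were Ier5l (0.55), Frat1 (0.53), Rhov (0.52), Fbxo32 (0.47), Bmf (0.43) and Kctd7 (0.30), a direction opposite to their change after LPS. Leaving out any of the 3 replicates left 1 gene that rose. With the replicate number as a block the counts were 5 and 11. Between 10 min of PD0325901 and of DMSO the differences of the 59 genes lay between -0.12 and 0.15.

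Hhex (chromosome 19 from 37434810 to 37440731, 4 exons), a homeobox repressor of blood cell development, was 9.51 to 9.63 in unstimulated WT libraries (median 9.60), 9.34 to 9.70 at 0.5 h (9.60), 7.99 to 8.40 at 1 h (8.22), and 7.47, 7.27, 7.36 and 7.28 at 2 h. In Elk1-/-Elk4-/- libraries it was 9.42, 9.51, 9.48 and 9.54 before LPS, 8.36, 8.38, 8.46 and 8.26 at 1 h, and 8.68, 8.43, 8.41 and 8.63 at 2 h. The later loss seen in WT libraries was missing there, and all Elk1-/-Elk4-/- libraries lay above all WT libraries at 2 h. Hhex fell by 0.62 from 1 to 2 h in Map3k8[D270A] cells (limma adjusted p = 5.98e-09, with -0.31 within replicates 1 to 3 and -0.93 within replicates 4 to 6) and fell by 0.32 with RSKi47 (adjusted p = 0.00282), a call that was lost without RSKi47 replicate 4 (-0.11), whereas in Elk1-/-Elk4-/- cells the difference was 0.17 (adjusted p = 0.147). At 2 h it was higher than in WT by 1.19 in Elk1-/-Elk4-/- cells (SE 0.10, limma adjusted p = 8.26e-14) and by 0.83 with RSKi47 (SE 0.10, adjusted p = 3.35e-12). RSKi47 replicate 4 stood low at 2 h, at 7.53 against 8.30, 8.40 and 8.49, and without it the difference was 1.05. In Map3k8[D270A] cells the 2 h range was 7.14 to 8.01 (median 7.66) and the difference from WT 0.28 (adjusted p = 0.0192). It was 0.56 within WT replicates 4 to 6 and Map3k8[D270A] replicates 1 to 3, and 0.05 within the later replicates, where it did not pass and WT has 1 library, and the call was also lost without WT replicate 5 or 7 or any of Map3k8[D270A] replicates 1 to 3 (0.21 to 0.26).

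Rhov (chromosome 2 from 119269201 to 119271272, 3 exons), a small GTPase, was the gene that did not pass the test at 1 h in Nfkb1[SS/AA] cells. These libraries held 8.33 to 8.80 before LPS (median 8.49), 7.62 to 7.93 at 0.5 h (7.75) and 8.24 to 8.80 at 1 h (8.71). The 0.5 h libraries lay below all others of this genotype, and the 1 h libraries overlapped the starting range. Rhov fell by 0.79 at 0.5 h in these cells (limma adjusted p = 2.93e-11). WT libraries held 7.86 to 8.08 (median 7.94), 7.04 to 7.68 (7.32) and 6.56 to 6.89 (6.70) at the same times and 5.71, 6.14, 5.79 and 5.75 at 2 h, without a return. With PD0325901 Rhov was 8.42, 8.44 and 8.39 at 10 min, 9.002, 8.95 and 8.85 at 70 min, and 7.59 to 7.87 (median 7.79) at 1 h of LPS, a difference of -0.64 from 10 min (limma adjusted p = 1.21e-06). The differences at 1 h were -0.82 in Map3k8[D270A] (adjusted p = 4.66e-09), -1.57 in Elk1-/-Elk4-/- (adjusted p = 5e-15) and -0.83 in RSKi47-treated cells (adjusted p = 1.51e-09). At 1 h the Nfkb1[SS/AA] mean was above the WT mean by 1.87 and that of PD0325901-treated cells by 1.06, values that are not tested because the WT libraries chose the gene.

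Fbxo32 (chromosome 15 from 58175879 to 58214932, 9 exons), a ubiquitin ligase subunit known from muscle wasting as atrogin-1 and a target of FOXO factors, was high in RSKi47-treated cells. WT libraries held 6.59 to 7.02 before LPS (median 6.86), 6.54 to 7.11 at 0.5 h (6.85), 5.22 to 5.77 at 1 h (5.58), and 4.57, 4.80, 4.82 and 4.81 at 2 h. RSKi47-treated libraries held 7.39, 7.42, 7.47 and 7.73, then 8.03, 8.01 and 8.12, then 7.32, 6.93, 7.06 and 7.70, and 5.16, 5.43, 5.21 and 5.42 at 2 h. They lay above all WT libraries at each time. With RSKi47 Fbxo32 rose by 0.55 at 0.5 h (limma adjusted p = 0.00124) and then fell by 1.95 from 1 to 2 h (SE 0.12, adjusted p = 9e-29). At 1 h it did not pass the main test, but it was called lower with the replicate number as a block. It fell at 1 h in the other arms, with differences of -1.06 in Map3k8[D270A] (adjusted p = 2.12e-15), -0.91 in Elk1-/-Elk4-/-, -1.39 in Nfkb1[SS/AA] and -1.30 in PD0325901-treated cells.

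Csrnp2, Ccnj, Sertad3 and 4632415L05Rik returned by 2 h, but not in the same arms. Csrnp2 (chromosome 15 from 100479570 to 100495488, 5 exons), a nuclear protein of the AXUD1 family, was 6.61 to 6.75 in unstimulated WT libraries (median 6.64), 6.59 to 6.98 at 0.5 h (6.87), 5.22 to 5.70 at 1 h (5.31), and 7.10, 7.21, 7.75 and 6.67 at 2 h. In Map3k8[D270A] libraries it was 6.70 to 6.91 (median 6.72), 6.85 to 7.11 (6.88), 5.51 to 5.76 (5.61) and 5.88 to 6.56 (6.30), and in Elk1-/-Elk4-/- libraries 6.34, 6.27, 6.31 and 6.28 at 2 h. All WT libraries at 2 h lay above all libraries of both mutants. Csrnp2 was still below its start at 2 h, with differences of -0.50 in Map3k8[D270A] (limma adjusted p = 1.44e-05), -0.47 in Elk1-/-Elk4-/- (adjusted p = 0.000662) and -0.45 in RSKi47-treated cells (adjusted p = 0.000101). At 2 h it differed from WT by -0.93 in Map3k8[D270A] cells (SE 0.11, limma adjusted p = 1.66e-09), with -0.83 within WT replicates 4 to 6 and Map3k8[D270A] replicates 1 to 3 and -0.70 within the later replicates, by -0.88 in Elk1-/-Elk4-/- cells (SE 0.12, adjusted p = 2.93e-08) and by -0.68 with RSKi47 (adjusted p = 4.84e-08), where replicate 4 (6.78) exceeded WT replicate 7 (6.67).

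Ccnj (chromosome 19 from 40831279 to 40848572, 6 exons), a cyclin of uncertain partner, rose above its start at 2 h in every arm sampled then. WT libraries held 6.50 to 6.92 before LPS (median 6.77), 5.53 to 5.82 at 1 h (5.63), and 8.001, 7.91, 7.97 and 7.75 at 2 h. Map3k8[D270A] libraries held 6.74 to 6.92 (median 6.83), 5.73 to 5.98 (5.81) and 7.59 to 7.97 (7.76). The 2 h values were 8.35, 8.47, 8.33 and 8.29 in Elk1-/-Elk4-/- and 8.43, 8.60, 8.40 and 7.78 in RSKi47-treated libraries. The 2 h libraries lay above all libraries of the earlier times shown. Ccnj rose above its start by 0.95 in Map3k8[D270A] (limma adjusted p = 5.49e-19), 1.52 in Elk1-/-Elk4-/- (adjusted p = 1.17e-23) and 1.19 in RSKi47-treated cells (adjusted p = 7.42e-20). From 1 to 2 h in Map3k8[D270A] cells it rose by 1.93 (SE 0.07, adjusted p = 1.2e-31), beside 1.67 for 4632415L05Rik and 1.57 for Sertad3, a transcriptional cofactor. Sertad3 at 2 h was 7.70, 7.66, 7.82 and 7.79 in WT and 8.72, 8.46, 8.39 and 8.65 in Elk1-/-Elk4-/- libraries, higher by 0.81 in the mutant (SE 0.09, limma adjusted p = 2.79e-11).

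At 0.5 h the repression was partial. In Map3k8[D270A] cells 22 of the 59 genes fell (1.17% of all genes called lower), with a median of -0.15. In Elk1-/-Elk4-/- cells 22 fell (1.74%, median -0.25), in Nfkb1[SS/AA] cells 40 (6.07%, median -0.30), with PD0325901 against 10 min of inhibitor 26 (3.97%, median -0.21) and with RSKi47 19 (1.7%, median -0.15). The PD0325901 count was 16 without replicate 2 and 17 with the replicates averaged in pairs, and the RSKi47 count was 11, 12 and 16 without replicate 1, 3 and 4. Without Nfkb1[SS/AA] replicate 2, 38 fell. Tsc22d3, the glucocorticoid-induced leucine zipper GILZ, was the lowest in 3 arms, at -0.63 in Map3k8[D270A], -0.998 in Nfkb1[SS/AA] and -0.96 in PD0325901-treated cells, and Txnip in the other two, at -0.85 in Elk1-/-Elk4-/- and -0.83 in RSKi47-treated cells. The 0.5 h values moved with the replicate set. The library medians were -0.07 to -0.04 in WT replicates 4 to 6 and -0.31 to -0.26 in replicates 7 to 9, and -0.13 to -0.06 and -0.23 to -0.15 in Map3k8[D270A] replicates 1 to 3 and 4 to 6. Within Map3k8[D270A] replicates 1 to 3, 13 of the 59 fell at 0.5 h. At 1 h the medians of Map3k8[D270A] replicates were -1.11 to -1.09 and -1.16 to -1.02 in these sets.

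At 2 h most of the genes were still below the start, in arms where a large part of all genes had changed. In Map3k8[D270A] cells 53 fell (34.6% of all genes) and 3 rose (34.9%), with a median of -0.74, in Elk1-/-Elk4-/- cells 53 fell (32%) and 4 rose (35.2%), with a median of -0.997, and with RSKi47 54 fell (29.7%) and 3 rose (32.5%), with a median of -0.78. Sertad3, 4632415L05Rik and Ccnj were the genes that rose in each arm, joined in Elk1-/-Elk4-/- cells by Msl3l2 (0.38, limma adjusted p = 0.000259). Pik3ip1, an inhibitor of PI3K, was back near its start in all 3 arms, at -0.08, -0.18 and -0.09, and passed the test in none of them. From 1 to 2 h the genes moved both ways: 19 fell (29.1%) and 31 rose (32.5%) in Map3k8[D270A] cells, 19 fell (27%) and 27 rose (34.8%) in Elk1-/-Elk4-/- cells, and 23 fell (24.4%) and 22 rose (29.3%) with RSKi47, or 22 and 23 without RSKi47 replicate 4, without which 53 were below the start at 2 h. With all replicates, the genes that fell from 1 to 2 h were 32.2%, 32.2% and 39% of the 59 in these arms. Those that rose were 52.5%, 45.8% and 37.3%. Each was above the share over all genes, a difference that was not tested and from which nothing is read.

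**Figure D4:**
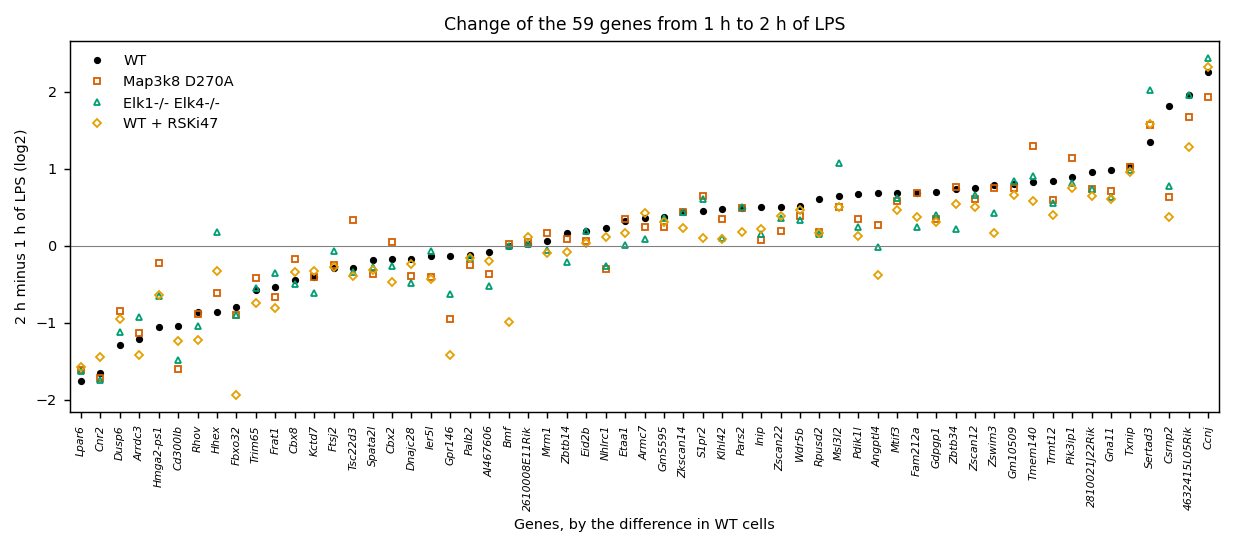
Difference of group means between 2 h and 1 h of LPS for each of the 59 genes (log2), ordered by the WT value, with 1 symbol per arm sampled at 2 h. Cnr2, Lpar6 and Cd300lb lie lowest in Map3k8[D270A] cells (-1.72 to -1.60), and Ccnj (1.93), 4632415L05Rik (1.67) and Sertad3 (1.57) lie highest.

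The arms were then compared with untreated WT cells at 0.5 and 2 h. Map3k8[D270A] cells hardly differed at 0.5 h: 0 genes were lower (0.892% of all genes) and 1 higher (0.48%), Inip, a subunit of a single-stranded DNA binding complex, by 0.19 (limma adjusted p = 0.0164), and 0 by 2-fold (0.135%). Inip did not pass with the replicate number as a block. At 2 h 5 were lower (13.1%), 17 higher (14.6%) and 0 by 2-fold (0.665%). The 5 were Csrnp2, Gpr146, Cd300lb, Ier5l (-0.37, SE 0.11, limma adjusted p = 0.00826) and Armc7 (-0.26, adjusted p = 7.01e-05). The Polycomb gene Cbx2 was higher by 0.69 (SE 0.11, adjusted p = 3.46e-06, with 0.385 within WT replicates 4 to 6 and Map3k8[D270A] replicates 1 to 3 and 0.92 within the later replicates), Tmem140 by 0.64 (SE 0.13, adjusted p = 9.23e-05) and the pseudogene Hmga2-ps1 by 0.47 (adjusted p = 0.00123). Cbx2 was 4.71, 4.75, 4.48 and 4.77 in WT and 4.83 to 5.87 (median 5.31) in mutant libraries, without overlap. Within the first set of replicates, and without Map3k8[D270A] replicate 4, 8 genes were lower, and within the second, which has 1 WT library at 2 h, 8 were higher. Within the second set Cd300lb, Ier5l (-0.13) and Tmem140 (0.66) did not pass.

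Elk1-/-Elk4-/- cells differed from WT in 18 genes lower (22% of all genes) and 4 higher (22.4%) at 0.5 h, 0 of them by 2-fold (1.17%), and in 13 lower (23.1%) and 10 higher (27.7%) at 2 h, 1 of them (Hhex) by 2-fold (2.09%). Neutrophil markers were higher in every Elk1-/-Elk4-/- library, and their part in these differences was not tested. At 0.5 h Arrdc3 (-0.88, SE 0.14, limma adjusted p = 1.18e-06) and Ier5l (-0.84, adjusted p = 1.51e-08) were lower. Before LPS they already stood at -0.80 and -0.92, values without a test. At 2 h Csrnp2 (-0.88) and Angptl4 (-0.88, SE 0.17, adjusted p = 3.19e-05) were lower, while Hhex (1.19), Sertad3 (0.81) and Tsc22d3 (0.77, SE 0.15, adjusted p = 1.79e-05) were higher.

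In Nfkb1[SS/AA] cells 19 genes were lower (15.6%) and 2 higher (16.7%) at 0.5 h, 2 of them by 2-fold (0.551%): Arrdc3 (-1.06, SE 0.11, limma adjusted p = 4.1e-13) and Angptl4 (-1.05, SE 0.13, adjusted p = 1.11e-10). Neither was called by 2-fold without WT replicate 6. Dusp6 was also lower (-0.90, adjusted p = 2.61e-15). With PD0325901 13 were lower (15%), 1 higher (14.5%), which was Rhov (0.44, SE 0.09, adjusted p = 0.00016), and 0 by 2-fold (0.409%). The lower genes numbered 8 without WT replicate 4 or 5, 6 with PD0325901 replicates averaged in pairs and 7 after quantile normalization. Dusp6 and Angptl4 were both lower, at -0.79 (adjusted p = 1.14e-12 and 8.62e-07). With RSKi47 17 were lower (24.5%), 9 higher (23.7%) and 3 by 2-fold (1.29%) at 0.5 h: Dusp6 (-1.29, SE 0.10), Txnip (-1.11, SE 0.12) and Fbxo32 (1.22, SE 0.12, adjusted p = 1.37e-15). At 2 h with RSKi47 11 were lower (24.6%), 19 higher (27.5%) and 2 by 2-fold (2%), Angptl4 (-1.24, SE 0.16, adjusted p = 1.23e-10) and Gpr146, and without RSKi47 replicate 4 these counts were 14, 16 and 3. Angptl4 was 6.11, 5.99, 6.67 and 6.04 in WT and 4.95, 5.09, 4.69 and 5.09 in RSKi47-treated libraries at 2 h, without overlap.

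Many of these differences were there before LPS. Relative to unstimulated WT libraries, RSKi47-treated cells without LPS stood at -1.02 for Arrdc3, -1.01 for Angptl4, -0.77 for Txnip, -0.67 for Dusp6, 0.66 for Fbxo32 and 0.50 for Rhov, and Nfkb1[SS/AA] cells at -1.12 for Angptl4, -0.75 for Arrdc3, 0.59 for Rhov and 0.57 for Tsc22d3. Cells given only DMSO stood at -1.22 for Arrdc3, -0.93 for Angptl4, 0.40 for Tsc22d3 and 0.36 for Rhov, so the mean levels of these genes in untreated WT cells and in WT cells with the solvent lay apart. In Map3k8[D270A] cells the lowest difference before LPS was -0.22, for Frat1. Cells given PD0325901 for 10 min lay within -0.12 and 0.15 of those given DMSO, so the distance of that arm from untreated WT cells was also there in the DMSO libraries. For Elk1-/-Elk4-/-, Nfkb1[SS/AA] and RSKi47-treated cells the genotype or inhibitor and the experiment in which the libraries were made cannot be told apart. The same holds for the solvent and the experiment in the DMSO and PD0325901 libraries. Arrdc3 was below WT before LPS in each of the DMSO, RSKi47, Nfkb1[SS/AA] and Elk1-/-Elk4-/- arms.

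For some genes an arm's difference from WT changed between 0.5 and 2 h. The difference at 2 h minus that at 0.5 h passed the test for 12 of the 59 genes in Map3k8[D270A] cells, 6 higher (8.34% of all genes) and 6 lower (8.15%). In Elk1-/-Elk4-/- cells it passed for 13, 10 higher (7.09%) and 3 lower (6.59%), and in RSKi47-treated cells for 17, 11 higher (10.2%) and 6 lower (9.02%). The counts were not stable: with the replicate number as a block 11 were higher in Map3k8[D270A] cells, and 18 higher and 7 lower in Elk1-/-Elk4-/- cells. In Map3k8[D270A] cells 3 were higher without WT replicate 6 or Map3k8[D270A] replicate 1, 10 within the first replicate set and 2 within the second, and in Elk1-/-Elk4-/- cells 1 was lower without WT replicate 7 or 8 or Elk1-/-Elk4-/- replicate 3. It was -1.03 for Csrnp2 in Map3k8[D270A] cells (SE 0.15, limma adjusted p = 5.9e-07), with -0.87 and -0.86 within the replicate sets, and -1.12 with RSKi47 (adjusted p = 4.29e-09). For Hhex it was 1.33 in Elk1-/-Elk4-/- cells (SE 0.14, adjusted p = 5.49e-10) and 1.09 with RSKi47 (adjusted p = 6.69e-10). For Arrdc3 it was 1.04 in Elk1-/-Elk4-/- cells (adjusted p = 0.000225) and for Dusp6 1.51 with RSKi47 (adjusted p = 4.45e-14), where a low value at 0.5 h met similar values at 2 h.

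The repressed genes were compact, a property the rule did not use. In the GENCODE vM21 annotation of GRCm38, 58 of the 59 were found, 56 of them protein coding, and 1 transcript was taken for each, the one with the longest coding sequence or, for the pseudogene Gm10509 and the noncoding 4632415L05Rik, the longest. The median number of exons was 3 (quartiles 2 and 5), against 9 (5 and 15) in 9979 other genes with an unstimulated mean of at least 6. Of the 58, 32 (55.2%) had at most 3 exons, against 11.7%, and 9 (15.5%), these 2 noncoding genes included, had a single exon, against 2.04%. The median span was 9.38 kb against 24.2 kb, and 31 (53.4%) spanned at most 10 kb, against 23.3%. The mature transcript was not shorter, with medians of 3192 and 2974 bases, and the 3′ UTR was longer, at 1614 against 970 bases. The AU-rich pentamer ATTTA was found 0.98 times per kb of 3′ UTR against 1.29, and 30.4% against 33.5% had none. The genes also had lower levels than the others, and the part of level in these differences was not tested. By position, 19 of the 58 overlapped a gene on the opposite strand, Trim65 overlapped Trim47 on the same strand, and the only neighbours within 100 kb were Cbx8 and Cbx2, 5.03 kb apart on chromosome 11. The reads were strand-specific according to the methods, and no source used here says whether the counting used the strand.

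**Figure D5:**
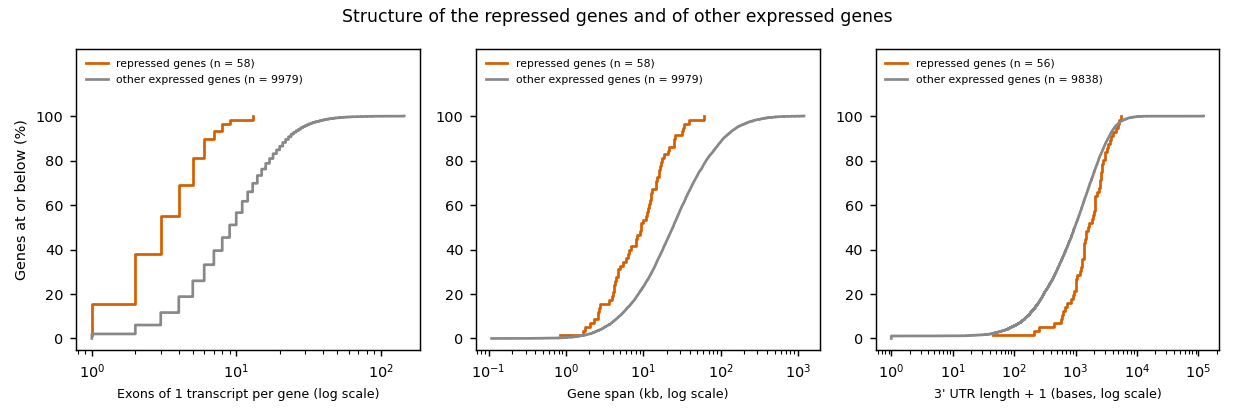
Cumulative share of genes (percent) by exon number, gene span and 3′ UTR length (logarithmic axes) for the repressed genes and for other expressed genes. The curves of the repressed genes lie to the left for exons (median 3 against 9) and span (9.38 against 24.2 kb) and to the right for 3′ UTR length (1614 against 970 bases).

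Lists of related genes were examined in Map3k8[D270A] cells at 1 h, a comparison in which 20.1% of all genes were called lower and 21.8% higher. Of 19 FOXO targets and regulators 7 fell and 8 rose (median -0.04), and without the 3 repressed genes among them 4 of 16 fell and 8 rose. The repressed genes Txnip, Pik3ip1 (-1.22) and Fbxo32 were the only ones lower by 1, and Sesn1 (-0.47) and Foxo3 (-0.38) fell less, while Bcl2l11 (2.00), Cited2 (1.51) and Irs2 (1.34) rose. Of 13 genes linked to CSF1 and ERK signaling 3 fell and 8 rose (median 0.59), or 2 and 8 of the 12 other than Dusp6: Dusp6 (-2.001), Dusp7 (-0.44) and Spry2 (-0.36) fell, whereas the feedback inhibitors Spry1 (3.13) and Dusp4 (1.59) rose. Of 25 macrophage transcription factors 5 fell and 17 rose (median 0.22), or 4 and 17 of the 24 other than Hhex. Hhex (-1.38) and Cebpa (-0.83) were among those that fell, and Tfec (1.99) and Cebpb (1.34) rose.

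Of 40 receptors of the macrophage surface 8 fell and 10 rose (median 0.03), or 6 and 10 of the 38 that were not among the repressed genes, led by Lpar6 (-1.43) and S1pr2 (-0.95) in one direction and Tlr2 (2.20) in the other, and the LPS receptor gene Tlr4 fell by 0.41. Of 11 glucocorticoid targets 2 fell, Tsc22d3 (-1.14) and Per1 (-0.33), and 4 rose, among them Dusp1 (1.94) and Sgk1 (1.38), with a median of 0.12, or 1 and 4 of the 10 other than Tsc22d3. Of 16 clock genes 4 fell (Tef, Per1, Bhlhe41 and Dbp, -0.33 to -0.32) and 6 rose (median 0.07). Of 17 genes that restrain the cell cycle 1 fell, Cdkn1b (-0.16), and 7 rose, led by Cdkn1a (1.40), with a median of 0.04. Of 10 genes known to be induced by LPS 8 rose, led by Il1b (5.01) and Cxcl2 (4.67), 1 fell (Fos, -0.41), and the median was 3.50. Among the 10 macrophage markers 0 fell and Cd14 (1.14) and Csf1r (0.25) rose in the same comparison. At 2 h in these cells, where 34.6% of all genes were below the start and 34.9% above, several lists stood differently, and the change between the times was not tested. Of the genes linked to CSF1 and ERK 9 were lower and 3 higher (median -0.69), of the clock genes 13 and 3 (median -0.44), and of the glucocorticoid targets 6 and 3 (median -0.54). The counts were 9 and 7 for FOXO genes, 13 and 11 for transcription factors, 15 and 15 for receptors, 6 and 4 for cell cycle inhibitors, and 2 and 8 for the LPS-induced genes.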

How the data were processed

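RNA-seq libraries of mouse BMDMs were analysed, 119 in all. According to the methods, the authors aligned strand-specific single-end reads with STAR to mm10 and counted them per RefSeq gene with RSEM. The submitters' processing notes name STAR 2.5.1b, RSEM 1.2.29 and DESeq2 1.10.1, and the methods give other versions of STAR and RSEM. The authors deposited log2 values that they had normalized (18098 genes, -2.40 to 19.81), and no source used here gives the transformation. Differences between libraries may be on a natural logarithm, in which case each would be larger as a log2 value. One value above 25, 57.73 for Fosb, was set to missing. The values hold no counts, so depth is unknown and precision comes from the replicates.

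Group means were tested by limma 3.58.1 (R 4.3.3), without trend, with Benjamini-Hochberg adjustment over all genes tested. Comparisons within and between WT, Map3k8[D270A] and Elk1-/-Elk4-/- cells used their 62 libraries (11884 genes reaching 10 on the linear scale in 4 or more), and the others used all 119 (11971 genes, 3 or more libraries). The threshold was an adjusted p of 0.05. The procedure was tested on simulated data. Percentages beside counts of members are shares of all genes tested that met the same call.

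The members and the gene lists were chosen with earlier results of these data known. The rule for named genes took the 10 with the largest fall in WT cells at 1 h, the 5 most abundant, the 3 on each side of the limit, up to 3 in each direction per comparison with WT whose libraries did not overlap, the 4 that rose and the 4 that fell most from 1 to 2 h in Map3k8[D270A] cells, and members of the lists. Csrnp2, Rhov, Fbxo32 and other genes described beyond these were named after their values were seen.

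The replicate numbers were checked by the correlation of deviations from group means. In WT (30 of 30 pairs, lowest 0.164) and Nfkb1[SS/AA] cells (18 of 18, lowest 0.145) every correlation exceeded 0.1, and in the other arms some did not, so the block is an alternative. Other alternatives were quantile normalization, median centring, a limma trend, no filter, a pseudocount of 8, other limits of the rule, replicate sets, and each replicate left out. No library duplicated another, the smallest root mean square difference between any pair being 0.0978. Gene structure came from GENCODE vM21 and promoters from RefSeq (GRCm38.p6). Hmga2-ps1 was not matched.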

Additional observations from a re-analysis of the deposited data

Results flagged for a closer look

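Single libraries stood apart from their group in 14 of 200 group tests over 9 genes and the library medians (gap to the nearest library divided by the range, Dixon's 95% limit), and chance alone marks about 1 in 20 groups. For Txnip these were Elk1-/-Elk4-/- replicate 4 at 1 h (10.77, ratio 0.898), WT replicate 6 at 2 h (12.34, 0.925) and RSKi47 replicate 2 at 2 h (11.62, 0.938). For Csrnp2 they were Elk1-/-Elk4-/- replicate 2 at 1 h (5.39, 0.87) and replicate 1 before LPS (6.70, 0.965), Map3k8[D270A] replicate 1 at 0.5 h (7.11, 0.79) and before LPS (6.91, 0.82), and WT replicate 9 before LPS (6.75, 0.65). The others were Cnr2 in Nfkb1[SS/AA] replicate 3 before LPS (9.84, 0.647), Dusp6 in PD0325901 replicate 2 at 0.5 h of LPS (9.31, 0.637), Hhex in PD0325901 replicate 1 at 0.5 h (9.34, 0.734), Rhov in PD0325901 replicate 1 at 1 h (7.59, 0.677), Fbxo32 in WT replicate 4 at 2 h (4.57, 0.929) and Ccnj in Elk1-/-Elk4-/- replicate 3 at 0.5 h (6.58, 0.899).

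The difference from WT changed between 0.5 and 2 h by at least 1 in 6 cases that passed the test of that change (limma). These were Csrnp2 in Map3k8[D270A] (-1.03) and RSKi47-treated cells (-1.12), Arrdc3 in Elk1-/-Elk4-/- cells (1.04), Hhex in Elk1-/-Elk4-/- (1.33) and RSKi47-treated cells (1.09, or 1.31 without RSKi47 replicate 4), and Dusp6 in RSKi47-treated cells (1.51, or 1.57 without RSKi47 replicate 4).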

How the results depend on the processing

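No named difference that passed its test changed direction under any setting. The larger of the counts in both directions did change where they were close or small, as for RSKi47 from 1 to 2 h (23 fell and 22 rose, or 22 and 23 without replicate 4) and for PD0325901 alone. No scaling moved the median of all genes by over 0.1. The fit over all libraries, a limma trend, no filter and median centring left every count of called genes within 1.5 times, except that median centring gave 5 lower for the change of the Elk1-/-Elk4-/- difference between 0.5 and 2 h. The natural-logarithm threshold (0.693), chosen after the data were seen, raised the counts at least 2-fold to 58 in Map3k8[D270A] and 55 in RSKi47-treated cells at 1 h, and in comparisons with WT to 2 for Map3k8[D270A] at 2 h, 2 and 5 for Elk1-/-Elk4-/- at 0.5 and 2 h, 2 for PD0325901 and 6 for RSKi47 at 0.5 h. Within WT replicates 4 to 6 and Map3k8[D270A] replicates 1 to 3, 13 genes were lower at 0.5 h, and against WT 0 were higher at 0.5 h and 8 lower at 2 h. The change of the Map3k8[D270A] difference between 0.5 and 2 h gave 10 higher in these replicates and 2 in the later ones. Within the later replicates 4 were higher than WT at 0.5 h and 8 at 2 h. With PD0325901 replicates averaged in pairs 17 were lower at 0.5 h, and 6 lower than WT. Quantile normalization gave 7 lower and 2 higher for PD0325901 against WT at 0.5 h, and a pseudocount of 8 gave 1 gene at least 2-fold apart for Nfkb1[SS/AA] against WT. The rule itself gave 10 genes at a limit of -1.5, 198 at minus the natural logarithm of 2, 35 at an unstimulated mean of 7, and 56 to 68 with a WT replicate left out.

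With the replicate number as a block 0 genes were higher in Map3k8[D270A] than in WT cells at 0.5 h, where Inip (0.19) no longer passed, and 5 fell and 11 rose between 10 and 70 min of PD0325901. For the change between 0.5 and 2 h it gave 11 higher in Map3k8[D270A], and 7 lower and 18 higher in Elk1-/-Elk4-/- cells. RSKi47 at 1 h gave 59 genes, and no other count moved by over 1.5 times.

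With a single replicate left out the counts ranged as follows. With PD0325901, 16 to 25 fell at 0.5 h (16 without replicate 2), and 1 to 6 rose between 10 and 70 min (1 without any of replicates 1 to 3). Between 10 and 40 min, alternatives chosen after the data were seen gave 1 to 4 that fell (1 without any of replicates 1 to 3) and 1 to 3 that rose (1 without replicate 3). With RSKi47, 11 to 16 fell at 0.5 h (11 without replicate 1, 12 without replicate 3). Against WT, Map3k8[D270A] gave 0 to 2 higher at 0.5 h, 5 to 8 lower at 2 h (8 without Map3k8[D270A] replicate 4) and 0 to 1 by 2-fold at 2 h (1 without WT replicate 7). Elk1-/-Elk4-/- gave 1 to 2 by 2-fold at 2 h (2 without WT replicate 7). Nfkb1[SS/AA] at 0.5 h gave 1 to 3 higher (WT replicates 8 and 9) and 0 to 2 by 2-fold (0 without WT replicate 6, 1 without WT replicate 5). PD0325901 at 0.5 h gave 8 to 15 lower (8 without WT replicate 4 or 5) and 1 to 2 higher (2 without PD0325901 replicate 4), and RSKi47 at 2 h gave 1 to 3 by 2-fold (1 without WT replicate 6). The alternatives for changes between 0.5 and 2 h were chosen after the data were seen. These gave 5 to 8 lower and 3 to 9 higher in Map3k8[D270A] (3 without WT replicate 6 or Map3k8[D270A] replicate 1), 1 to 3 lower (1 without WT replicate 7 or 8 or Elk1-/-Elk4-/- replicate 3) and 9 to 13 higher in Elk1-/-Elk4-/-, and 5 to 6 lower and 9 to 13 higher with RSKi47. Of the named differences, Inip in Map3k8[D270A] cells lost its call without WT replicate 7 or 8 or Map3k8[D270A] replicate 2, Ier5l in Map3k8[D270A] cells at 2 h without WT replicate 5 (-0.30), and Dusp6 in Elk1-/-Elk4-/- cells at 0.5 h without Elk1-/-Elk4-/- replicate 4 (-0.25). Depth is unknown and sets no limit that could be computed. Genes under an unstimulated mean of 6 were not considered.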
